A study of Solanum lycopersicum with 2 samples.

Results

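The outermost 1 Mb at each end of the 12 tomato chromosomes held 3167 of the 65452 peaks bound by SlWUS in this DNA affinity purification experiment. They make up 4.84% of the list. A peak was counted at a tip when its summit, the position of highest signal, lay at 1000000 or less on a numbered chromosome, or within 1000000 bp of the end of the last peak there. The 24 tips are called end tips at high coordinates and start tips at low coordinates. The 12 end tips held 1581 peaks and the 12 start tips 1586. Each tip was set against the zone next to it, 1 to 5 Mb from the same end, and these zones together held 13457 peaks.

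DNA affinity purification sequencing (DAP-seq) exposes a library of naked genomic DNA fragments to a protein made outside the plant and sequences the fragments that are retained. There were 2 samples, both from greenhouse plants of the tomato (Solanum lycopersicum) cultivar Ailsa Craig: one titled for the transcription factor WUSCHEL, and one titled as its input. Both are genomic DNA, both are labelled with the flower abscission zone and with Halo, the name of a tag used to hold a protein on beads, and each group is 1 library. The peak list of the WUSCHEL library was the sole file used, so the spread given below is that between tips or the counting error of a peak, not that between experiments, and read depth is not known from it.

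WUSCHEL is a homeodomain protein that keeps stem cells of plant meristems undifferentiated, and the study, by its title, concerns SlWUS and SlCLV3 in the shedding of tomato flowers in low light. The ends of tomato chromosomes close in arrays of telomere repeats, often next to subtelomeric satellite DNA, and reads from such repeats are hard to place. Inward of these repeats the arms are euchromatic and rich in genes, and further inward they give way to repeat-rich pericentromeric heterochromatin. The short arm of chromosome 2 is an exception, since it is largely heterochromatic and carries the nucleolus organizer with its ribosomal RNA genes. DAP-seq DNA carries no chromatin, so a peak says where the protein can bind and not where it does so in the plant.

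The tips were rich in SlWUS peaks, although most were slightly less dense than the zones beside them. They averaged 132 ± 21.9 peaks per Mb (SD, n = 24), against 140.2 ± 21.8 in the adjoining zones. Further than 5 Mb from both ends the chromosomes held 74.8 peaks per Mb, so the pooled density of the tips was 1.76 times that of the interior. Density was lower in 17 tips and higher in 7 tips than in the adjoining zone. The mean log2 ratio was -0.08 ± 0.20 (SD, n = 24) and did not pass the threshold of 0.05 (two-sided sign-flip permutation test over tips with 100000 resamples, p = 0.0517, 0.155 after Benjamini-Hochberg adjustment over 9 measures). The mean log2 ratio was more negative for end tips than for start tips. The log2 ratio of end tips was -0.16, negative in 9 of 12 (exact sign-flip permutation p = 0.0142, adjusted 0.0637). That of start tips was -0.0066, negative in 8 of 12 (exact permutation p = 0.913, adjusted 0.970). The start tips include chromosome 6 start, whose density was 1.38 times that of its adjoining zone, the highest ratio of the 24 tips. The mean of the start tips without it was not computed. The tips themselves were alike, with 131.75 peaks per Mb at end tips and 132 at start tips, and the adjoining zones were not. Density from 3 to 4 Mb was 153 per Mb on the end side and 130 on the start side, and from 4 to 5 Mb 136 and 115. From 1 to 2 Mb it was 148 on both. The difference between the log2 ratios was not tested. The tips are parts of 1 library, so these p-values and those below describe positions in it. In the same permutation test the call depended on where the zones ended: the log2 ratio was -0.15 (adjusted p = 0.00288) against 1 to 3 Mb and -0.17 (adjusted p = 0.0223) for the outer 500 kb alone, but 0.02 (adjusted p = 0.803) for the outer 2 Mb against 2 to 5 Mb.

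**Figure D1:**
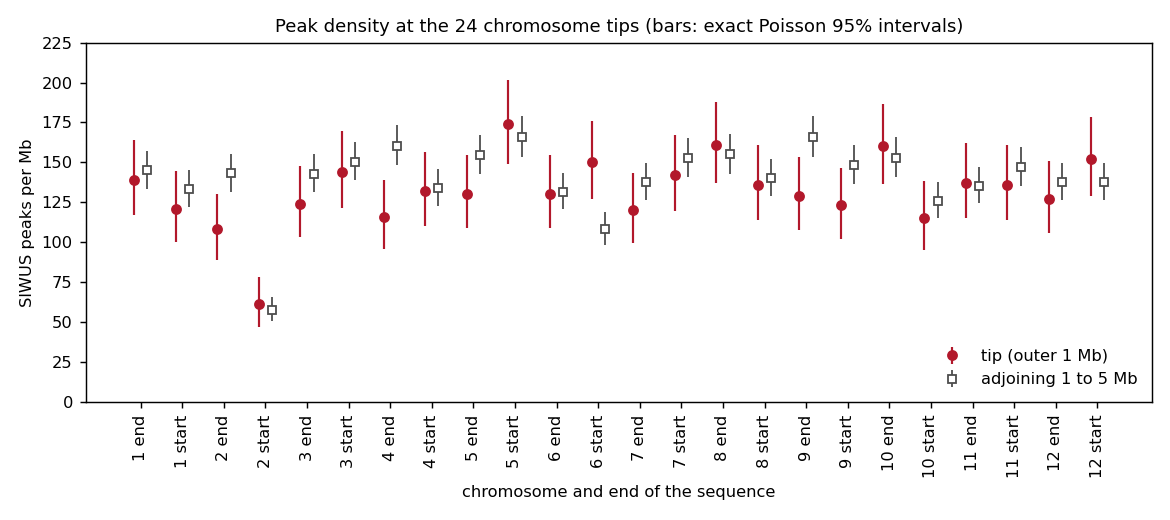
SlWUS peaks per Mb in each tip (filled circles, outer 1 Mb) and in its adjoining 1 to 5 Mb (open squares), for the end and start of each chromosome; bars are exact Poisson 95% intervals. The chromosome 2 start tip, at 61.0 per Mb, lies below all other tips, and 4 tips have an interval that does not meet that of their adjoining zone.

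The start of chromosome 2 stood apart from the other 23 tips. It held 61 peaks (exact Poisson 95% interval 46.7 to 78.4), and its adjoining zone was just as sparse, at 57.8 per Mb (50.5 to 65.7). The next lowest tip was the other end of the same chromosome, with 108 peaks (88.6 to 130), whose interval does not meet that of the start. The low density on this side of chromosome 2 thus ran on from the tip into the adjoining zone.

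Chromosome 5 start was the densest tip with 174 peaks (149 to 202), followed by chromosome 8 end with 161 (137 to 188) and chromosome 10 end with 160 (136 to 187). The intervals of these tips overlap, and their order is not resolved. The lowest after both tips of chromosome 2 was chromosome 10 start with 115 (94.9 to 138). Over the 24 tips the variance of the count was 3.65 times its mean, and without chromosome 2 start it was 1.96 times. Most of the excess over counting error thus came with 1 tip.

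In 4 of the 24 tips the interval of the density did not meet that of the adjoining zone. These intervals take peaks as independent, cover counting error only and were not adjusted for the number of tips compared. Chromosome 4 end had 116 per Mb (95.9 to 139), against 160.25 (148 to 173) next to it, a ratio of 0.724. Chromosome 2 end had 108 per Mb against 143 (132 to 155), a ratio of 0.754. Chromosome 9 end had 129 per Mb (108 to 153) against 166 (153 to 179), a ratio of 0.778. These 3 end tips were sparser than the zones beside them, and the fourth tip went the other way. Chromosome 6 start had 150 per Mb (127 to 176) against 109 (98.5 to 119), 1.38 times as many.

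Pooled over both sides, the density within the tips was lowest at the very end and higher from 400 kb inward. It was 109 ± 36.0 peaks per Mb in the outermost 100 kb (SD, 24 tips), 123 from 100 to 200 kb, 118 from 200 to 300 kb and 128 from 300 to 400 kb. From 400 to 500 kb and from 500 to 600 kb it was 149, and it lay between 132.5 and 142 from there to 1000 kb. The outer 400 kb held 1149 peaks at 119.7 per Mb and the next 600 kb held 2018 at 140.1 per Mb. The outer part was the sparser one in 15 tips and the denser one in 8. This division was made after the profile was seen and was not tested. End and start tips had similar values in some bins. In the outermost 100 kb there were 110.0 per Mb at end tips and 108 at start tips, and from 400 to 500 kb 152 and 146. Neither side alone followed the pooled pattern throughout. Start tips had 137.5 per Mb from 100 to 200 kb but 124 from 800 to 900 kb. End tips had 130 per Mb from 300 to 400 kb but 124 from 700 to 800 kb. End and start tips lay furthest apart from 100 to 200 kb, with 108 ± 35.1 at end tips and 137.5 ± 60.3 at start tips (SD, n = 12 each). That bin was picked for its difference, which was not tested.

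**Figure D2:**
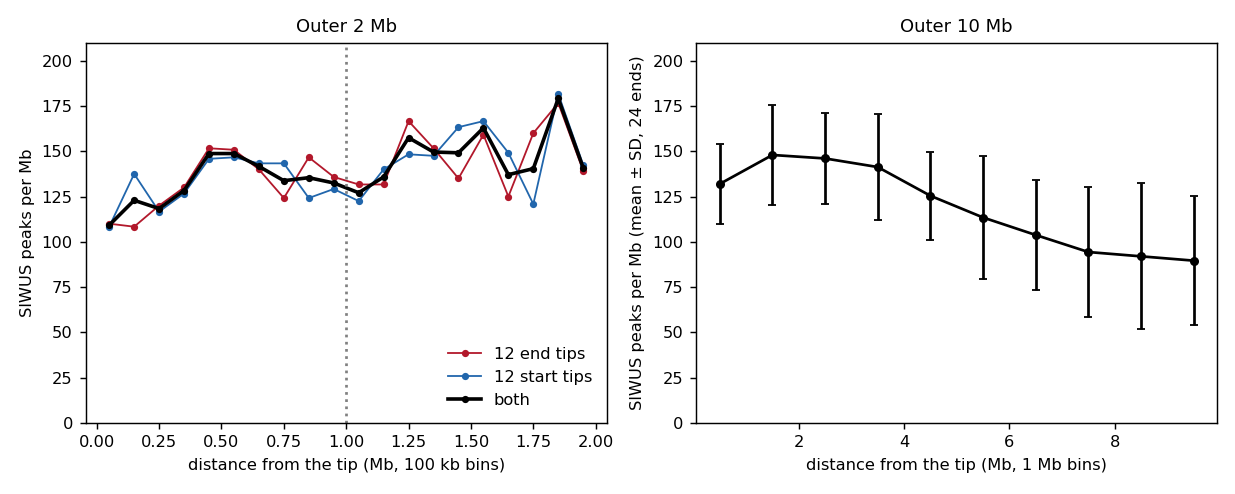
Left, SlWUS peaks per Mb in 100 kb bins over the outer 2 Mb for the 12 end tips, the 12 start tips and both; the dotted line marks 1 Mb. Right, mean ± SD over the 24 chromosome ends in 1 Mb bins over the outer 10 Mb. Density is lowest in the outermost bins at left, and at right it is highest from 1 to 2 Mb, at 148 per Mb, and lower beyond 4 Mb.

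Seen over 10 Mb, the outermost Mb was not the densest. Density was 132 ± 21.9 per Mb in the first Mb, 148 ± 27.8 in the next, 146 ± 25.3 from 2 to 3 Mb, 141 ± 29.4 from 3 to 4 Mb and 125 ± 24.4 from 4 to 5 Mb (SD, 24 ends). From 9 to 10 Mb it was 89.6 ± 35.6. The spread between ends, as variance over mean of the counts, was 3.65 in the first Mb and 14.2 from 9 to 10 Mb. By this measure the 24 ends, pooled over both sides, were most alike in the first of these 10 bins, but neither side alone was. On the end side variance over mean was 1.92 in the first Mb and lowest from 4 to 5 Mb, at 0.685. On the start side it was 5.71 in the first Mb and lowest from 7 to 8 Mb, at 5.19. From 9 to 10 Mb the start side held 64.8 peaks per Mb and the end side 114. The part of this difference between sides in the pooled spread was not tested.

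Peaks on either side of the 1 Mb limit had similar fold and overlapping widths. The last summits inside it lay at a median of 993915 bp from the tip and had a median fold of 3.89 and a median width of 293.5 bp (24 peaks). The first summits outside it lay at a median of 1006020 bp, with 3.81-fold and 309 bp. Over 100 kb on each side, the median width was 305 bp inside and 341 bp outside, and the median fold was 4.21 inside and 4.34 outside. That step in width was picked as the largest between neighbouring 100 kb bins of the outer 2 Mb and was not tested.

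The ends themselves were reached differently, because an end tip is counted from its last peak. The last summit of the end tips therefore lay 69 to 351 bp from that point by construction. The first summit of the start tips lay a median of 16617.5 bp from position 1. It was closest on chromosome 5, at 370 bp, in a peak from 39 to 562, and farthest on chromosome 11, at 46565 bp. Most outermost peaks were weak, with a median of 3.74-fold over 24 peaks. Of them, 4 passed 10-fold, a level reached by 9.23% of all listed peaks. On chromosome 12 both outermost peaks did so: the last peak, from 66665587 to 66666023, had 45.8-fold and was the strongest of its tip, and the first, from 15552 to 16173, had 23.7-fold. The first peak of chromosome 9, from 29086 to 30952, had 35.3-fold and was also the strongest of its tip. The last peak of chromosome 8, from 63993670 to 63994404, had 16.0-fold. Whether the sequence at these outermost peaks is unique was not analysed here.

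Peaks at the tips were about as strong as those beside them. Fold enrichment is the authors' value for the fragments piled up at a summit over the local background. The median of the tips was 4.16 (quartiles 3.27 and 5.89), against 4.2003 (3.31 and 5.89) in the adjoining zones and 4.38 (3.41 and 6.27) further in. Per tip the median fold averaged 4.19 ± 0.27, against 4.21 ± 0.13 in the adjoining zone (SD, n = 24). The difference of log2 medians was -0.01 ± 0.09 and was positive in 11 tips and negative in 13 (sign-flip permutation p = 0.618, adjusted 0.618). The highest median was on chromosome 6 start at 4.80, followed by chromosome 1 end at 4.62 and chromosome 9 end at 4.51. The lowest was on chromosome 11 end at 3.78, with chromosome 10 end at 3.84 and chromosome 11 start at 3.85 next. A median peak of the tips had 31 fragments at its summit, with a counting interval of 21.1 to 44.0, so the order of single peaks near the median is not resolved.

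At 5-fold or more lay 1115 of the tip peaks, or 35.2%, against 35.2% in the adjoining zones and 37.9% of all peaks. Peaks of 10-fold or more numbered 260 in the tips, or 8.21% (exact binomial 95% interval 7.28 to 9.22), against 1035 or 7.69% (7.25 to 8.15) in the adjoining zones. Per tip the share averaged 8.24% ± 1.99, against 7.82% ± 1.34 (SD, n = 24), a difference of 0.416 ± 2.18 percentage points (permutation p = 0.359, adjusted 0.404). Both shares lay below the 9.23% of the whole list. The tips ranged from 3 such peaks among 136 on chromosome 11 start to 17 among 152 on chromosome 12 start. At 20-fold or more there were 55 peaks, 1.74% (1.31 to 2.25) against 1.36% (1.17 to 1.57) in the adjoining zones and 1.99% of all peaks. They occurred in 20 of the 24 tips, with up to 7 in a tip (chromosome 12 start) and 6 on chromosome 4 start.

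Only 3 peaks of the tips passed 50-fold, or 0.0947% (0.0195 to 0.277), against 0.0817% (0.0408 to 0.146) in the adjoining zones and 0.252% of all peaks. All 3 were in start tips, on chromosomes 2 and 6. The strongest, 88.0-fold, was the interval from 610706 to 611186 of chromosome 2, with a summit of 653 fragments (exact Poisson 95% interval 604 to 705) over a background of 6.43. It stood in the sparsest tip, 10733 bp from the nearest other summit. The other 2 were in chromosome 6 start, from 647135 to 647723 at 87.7-fold with 698 fragments (647 to 752) over 6.97, and from 345989 to 346664 at 58.0-fold with 538 fragments (493 to 585) over 8.29. The counting intervals of the first 2 overlap, and by fragments and by −log10 q (1095 against 1028) the chromosome 6 peak came first.

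**Figure D3:**
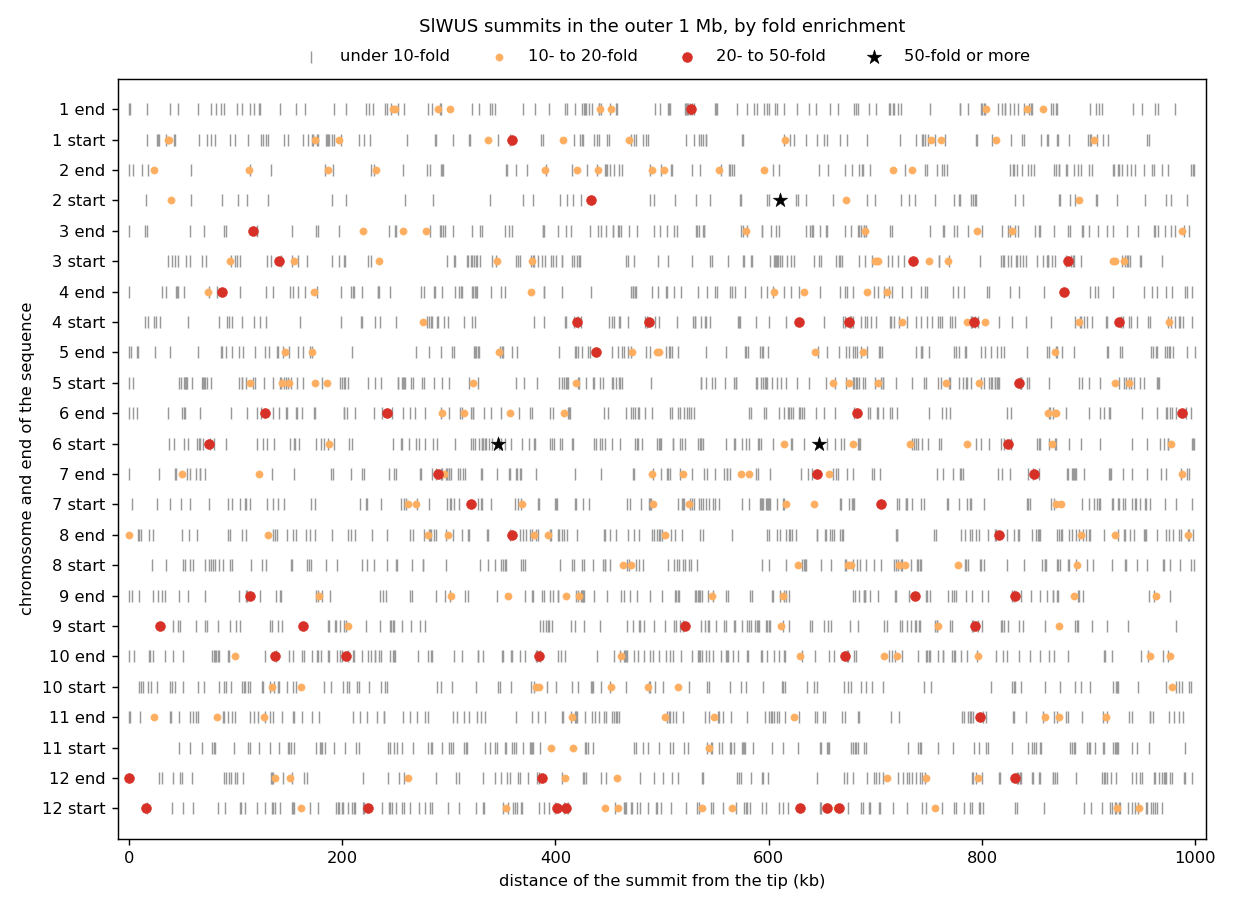
Each SlWUS summit of the 24 tips by its distance from the tip in kb (grey ticks, under 10-fold; orange, 10- to 20-fold; red, 20- to 50-fold; black stars, 50-fold or more). The 3 stars lie on chromosome 2 start and chromosome 6 start, the sparsest row is chromosome 2 start, and the widest empty stretch, 107503 bp, is on chromosome 9 start.

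The strongest peak of a tip ranged from 14.2-fold on chromosome 10 start to 88.0-fold, with a median of 30.2. In 12 tips it reached 30-fold, and in 4 it stayed under 20-fold. Besides those named, chromosome 1 end had 45.2-fold from 90258784 to 90259337, with 317 fragments. Chromosome 4 start had 45.02-fold from 674622 to 675162, with 314 fragments. Chromosome 9 end had 44.1-fold from 67723484 to 67724452, with 239 fragments over a low background of 4.44. Chromosome 10 end had 42.9-fold from 64395296 to 64395758, with 398 fragments over 8.29, so that it had more fragments than these 3 at a lower fold. These 4 peaks show that fold and fragments rank peaks differently.

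The remaining strongest peaks at 30-fold or more were 38.0-fold on chromosome 12 start from 409652 to 410655, 36.7-fold on chromosome 4 end from 64350226 to 64350675, 35.5-fold on chromosome 3 start from 734595 to 735029 and 31.7-fold on chromosome 8 end from 63178563 to 63179719. Between 20- and 30-fold lay those of chromosome 3 end (28.7), chromosome 5 end (27.3), chromosome 11 end (27.1), chromosome 5 start (26.1), chromosome 6 end (25.2), chromosome 7 end (24.2), chromosome 1 start (22.7) and chromosome 7 start (22.3). The 4 tips under 20-fold were chromosome 2 end (18.6), chromosome 8 start (17.6), chromosome 11 start (14.5) and chromosome 10 start (14.2). The number of peaks in a tip and its highest fold did not go together at the extremes: chromosome 5 start, the densest, reached 26.1-fold, and chromosome 2 start, the sparsest, held the highest value. The gene or repeat at these positions was not analysed here.

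Chromosome 12 start carried 3 peaks of 30-fold or more. Besides the one already given they were 33.5-fold from 665572 to 666035 and 31.1-fold from 223946 to 224397. Together the tips held 18 peaks of 30-fold or more in 12 tips. The share of all listed peaks at 30-fold or more was not counted. At 20-fold or more the share was 1.74% in the tips, against 1.36% in the adjoining zones and 1.99% of all peaks. At 50-fold or more it was 0.0947%, against 0.0817% and 0.252%. Strong and other peaks had similar distances to the next summit. It was a median of 2272 bp away (quartiles 1513 and 5625 bp) for the 55 peaks of 20-fold or more, and 2130 bp (1172 and 4463 bp) for the 3112 others. The last peak of chromosome 12 was the most solitary of those at 30-fold or more, 28393 bp from the next summit, and the 45.2-fold peak on chromosome 1 end had a summit 669 bp away.

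The background behind the peaks was higher at the tips than beside them. It is the number of fragments expected at a summit, recovered from the authors' fold and p, so it is not independent of the fold. How the input entered it is not stated. The median of a tip averaged 6.55 ± 0.188 fragments, against 6.33 ± 0.187 in the adjoining zone (SD, n = 24). The difference was 0.218 ± 0.178 fragments. It was positive in 21 tips, negative in 1 and 0 to 3 decimals in the others (sign-flip permutation p = 2e-05, adjusted 0.00018). The exceptions were chromosome 2 end, with 6.48 against 6.52, and chromosome 2 start (5.89 in both zones) and chromosome 3 end (6.55 in both). Further than 5 Mb from both ends the median background was 5.98, lower than in both zones. Over the first 3 bins of 1 Mb from the tip, the median on the start side was 6.55, 6.34 and 6.31. On the end side it was 6.57, 6.52 and 6.55, with no steady rise towards the tip.

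The highest tip medians of the background were 6.88 on chromosome 7 end, 6.79 on chromosome 4 end and 6.74 on chromosome 5 end, and the lowest was 5.89 on chromosome 2 start. The lowest background the caller used, 4.08 fragments, stood behind 1.11% of tip peaks, against 2.36% in the adjoining zones and 9.43% further in. No peak of the tips had a background above 12.8, while the adjoining zones reached 18.2 and the interior 26.6. Its part in the density of the tips was not tested.

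**Figure D4:**
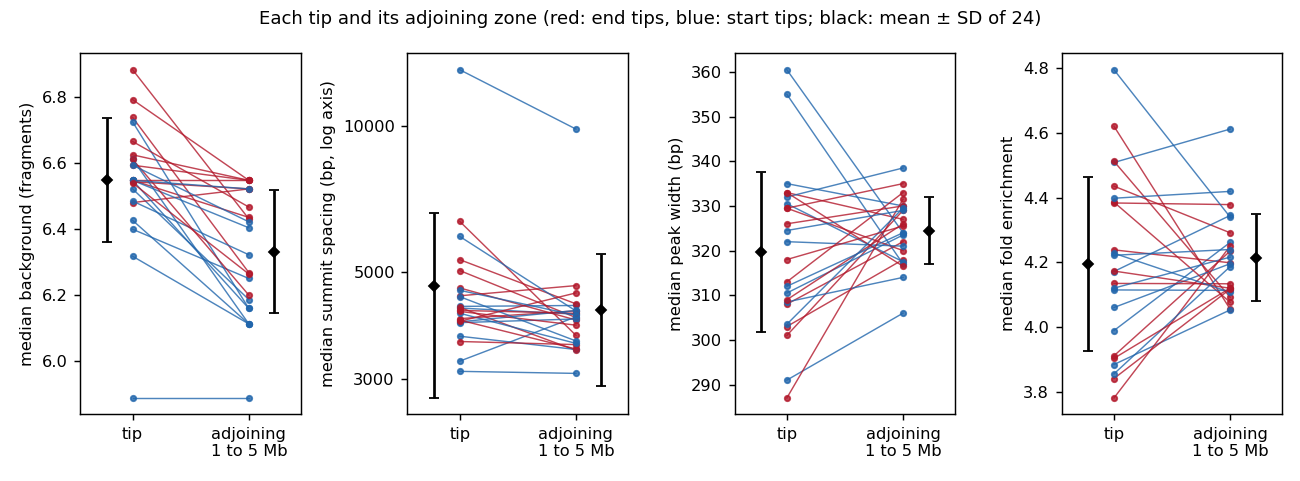
Median background in fragments, median distance between neighbouring summits in bp (log axis), median peak width in bp and median fold enrichment of each tip (left in each panel) and of its adjoining 1 to 5 Mb (right); lines join the zones of 1 chromosome end, red for end and blue for start tips, and black diamonds with bars are the mean ± SD of 24. The background is higher at 21 tips, while lines for width and fold run both ways and the tips spread more widely than their adjoining zones.

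The number of fragments at the summit was close to that of the adjoining zones. The median of a tip averaged 31.3 ± 2.18 fragments, against 30.4 ± 0.776 (SD, n = 24). The difference of 0.854 ± 2.31 was positive in 14 tips and negative in 7 (permutation p = 0.0912, adjusted 0.164). For the outer 500 kb alone it was 1.94 fragments (permutation test, adjusted p = 0.0223). Pileups of 100 fragments or more were found at 144 peaks of the tips, or 4.55%, against 3.75% in the adjoining zones and 4.3% of all peaks.

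Peaks at the tips were about as wide as those beside them. Their median width was 319 bp (quartiles 254 and 434 bp), against 325 bp (257 and 453 bp), and 310 bp further in. The median of a tip averaged 320 ± 17.9 bp, against 324 ± 7.42 bp (SD, n = 24). The difference was -4.69 ± 18.8 bp, negative in 16 tips and positive in 8 (permutation p = 0.237, adjusted 0.304). Width went with height: in the tips the median was 256.5 bp for peaks under 20 fragments, 286 bp from 20 to 39, 371 bp from 40 to 79 and 446.5 bp from 80. In the same classes the adjoining zones had 268, 292, 386 and 473 bp. The medians of the tips were thus the lower ones in each of the 4 classes. Per tip, the difference for 20 to 39 fragments was -5.15 bp, negative in 18 tips (permutation p = 0.0236, adjusted 0.0708).

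The widest median was on chromosome 6 start, 360.5 bp, followed by chromosome 4 start at 355 bp and chromosome 1 start at 335 bp. The narrowest were chromosome 10 end at 287 bp, chromosome 2 start at 291 bp and chromosome 4 end at 301 bp. Chromosome 6 start thus led in both median width and median fold, and it was the tip with the most peaks for its surroundings. Its adjoining zone had a median width of 324 bp and a median fold of 4.34. At 109 per Mb that zone was the second sparsest of the 24, so the ratio of 1.38 was taken over a low density, and its evenness of spacing, 0.452, was the lowest of the 24. These ranks are descriptions of 24 values, and the difference of 1 tip from the others was not tested.

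Very wide peaks, of 1000 bp or more, numbered 62 in the tips, or 1.96% (exact binomial 95% interval 1.50 to 2.50), against 2.0% (1.77 to 2.25) in the adjoining zones and 1.48% of all peaks. They occurred in 21 tips. The widest, 2186 bp, lay on chromosome 2 end from 52362736 to 52364921 at 6.53-fold, and the next, 1867 bp, was the 35.3-fold first peak of chromosome 9. Chromosome 6 start held 7 and chromosome 8 end 6. The place of the summit within a strong peak differed with its width. Of the 44 peaks of 20-fold or more and under 800 bp wide, 43 had the summit in the middle one of 3 equal parts of the interval. Of the 11 that were at least 800 bp wide, 3 did, and 8 had it nearer to one side. In the adjoining zones the summit was in the middle part in 12 of 34 wider and 136 of 149 narrower ones. The limits of this division were set after the values were seen.

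Neighbouring summits lay somewhat further apart at the tips. Pooled, the median distance was 4223 bp (quartiles 1786 and 9701 bp, 3143 distances), against 3912 bp (1702 and 9143 bp, 13433 distances) in the adjoining zones. The median of a tip averaged 4682 ± 1938 bp, against 4172 ± 1270 bp (SD, n = 24). The log2 ratio was 0.14 ± 0.24 and positive in 17 tips (sign-flip permutation p = 0.00779, adjusted 0.0351). In the permutation test this call was lost under 9 of 12 alternatives, among them leaving out chromosome 2 (0.12, adjusted p = 0.118), leaving out the outer 100 kb (0.09, adjusted p = 0.263) and taking the 12 chromosomes as units (0.14, adjusted p = 0.0659). Chromosome 2 start had by far the longest median distance, 13090 bp, followed by chromosome 4 end with 6360 bp and chromosome 10 start with 5921 bp, and chromosome 5 start had the shortest, 3115 bp.

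Closely spaced peaks were not clearly less common at the tips. Of the distances in the tips 28.3% were under 2000 bp, against 29.7% in the adjoining zones and 23.7% of all neighbouring summits. Per tip the share averaged 27.7% ± 5.35, against 29.1% ± 3.98 (SD, n = 24). The difference of -1.46 ± 4.03 percentage points was negative in 17 tips (permutation p = 0.0897, adjusted 0.164). By the same permutation test it was -3.03 points for the outer 500 kb (adjusted p = 0.0288) and -2.26 points against 1 to 3 Mb (adjusted p = 0.0476). The share ran from 11.7% on chromosome 2 start to 35.8% on chromosome 5 start, so it followed density at both extremes.

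The ratio of the median to the mean distance does not depend on the mean density of a zone. It is 1 when peaks are equally spaced, 0.693 when they are placed at random at constant density, and less as they crowd. It can also fall where density changes along a zone, and an adjoining zone spans 4 Mb against 1 Mb for a tip. The part of these unlike spans was not tested. The ratio averaged 0.593 ± 0.0797 at the tips, against 0.564 ± 0.0417 beside them (SD, n = 24). The difference was 0.0291 ± 0.0886, positive in 14 tips (permutation p = 0.122, adjusted 0.182), and for the outer 500 kb it was 0.0625 (adjusted p = 0.0288). It was highest on chromosome 2 start, 0.805, against 0.583 in its adjoining zone. The value rests on 60 distances, and the peaks of that tip were not evenly placed along it: the outer 400 kb held 35.0 per Mb and the next 600 kb 78.3, and 4 of its distances were 50 kb or more. It was lowest on chromosome 12 end and chromosome 3 start, at 0.50 in each.

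The closest summits of the tips were 366 bp apart, on chromosome 5 start at 811798 and 812164, and each tip had a pair within 658 bp. At the other extreme, 22 distances of 50 kb or more were found in 13 tips, which is 0.917 per Mb, against 0.813 per Mb in the adjoining zones. Chromosome 2 held 8 of the 22. The longest, 107503 bp, was on chromosome 9 start between the summits at 277667 and 385170. The next were 63352 bp on chromosome 3 start from 234909 to 298261 and 62547 bp on chromosome 9 end from 67503878 to 67566425. How well reads map there was not analysed here.

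In windows of 50 kb counted from the tip, the median number of peaks was 6 (quartiles 4 and 9, 480 windows). The fullest window held 16, on chromosome 10 end from 64530404 to 64580403, where the median fold was 3.20 and the highest 32.2. Another 9 windows held 15, of which 2 each were on chromosomes 1, 5 and 7, and 1 each on chromosomes 6, 8 and 9. The one on chromosome 6 start, from 300001 to 350000, contained the 58.0-fold peak and had a median fold of 5.05. No summit was found in 3 windows, on chromosome 2 end from 52987290 to 53037289, chromosome 9 end from 67510809 to 67560808 and chromosome 9 start from 300001 to 350000. Dense and empty windows occurred in the same tip, as on chromosome 9 start, where the window from 550001 to 600000 held 15 peaks.

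End tips and start tips did not differ detectably. Density averaged 131.75 ± 15.9 per Mb at end tips and 132 ± 27.5 at start tips (SD, n = 12 each), with a log2 ratio per chromosome of 0.02 ± 0.36, positive on 6 of 12 (two-sided exact sign-flip permutation over 12 chromosomes, p = 0.817, 0.962 after adjustment over 3 measures). Median width averaged 316 ± 14.8 bp at end tips and 324 ± 20.4 bp at start tips, a difference of -7.92 ± 25.4 bp (exact permutation p = 0.311, adjusted 0.932). Median fold averaged 4.193 ± 0.28 at end tips and 4.195 ± 0.27 at start tips (exact permutation p = 0.962, adjusted 0.962). With 12 chromosomes such a p cannot go below 0.000488. The SDs of the differences describe the spread between chromosomes. No interval of a mean difference was computed, so a difference of either sign is not excluded.

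The likeness of tips to their adjoining zones in density depended on 1 chromosome end by Pearson's r, and less so by Spearman's rho. Across the 24 tips the density of a tip and of its adjoining zone had a Pearson's r of 0.652 and a Spearman's rho of 0.353, and without chromosome 2 start r was 0.227 and rho 0.265 (23 tips). For median width r was 0.0851 and rho 0.0470, and for median fold r was 0.314 and rho 0.178. For median background r was 0.549 and rho 0.386, and r was 0.296 and rho 0.301 without chromosome 2 start. Density and background across tips had r = 0.429 and rho = 0.0262, and r = -0.186 and rho = -0.107 without chromosome 2 start. These are descriptions over sites of 1 library, which share its depth and its input.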

How the data were processed

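SlWUS peaks were taken from the narrowPeak list of the WUSCHEL DAP-seq library of 1 sample; no file of the input library was used. The submitters' processing notes name Bowtie2 2.2.5, MACS2 2.1.2 and ChIPseeker; what settings they ran with is not stated there. By its sequence names the list uses build SL4.0, and positions are counted from 1. Fold (a ratio), −log10 p and −log10 q are values of the authors' caller. The score column, as deposited, restates the −log10 q and was not used. Intervals, summits and offsets (other values) were used as deposited by the authors.

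Pileup and background were solved from fold and p, with 1 added to each for the fold and a Poisson tail for p. A whole pileup was found for 65452 of 65452 peaks within 0.001 of −log10 p (largest error 0.000117, next-best at least 0.0712). Background was rounded to 3 decimals. A peak belongs to the zone of its summit, and distances between summits were taken within a zone. The last peak set the end of each chromosome, whose length was not used here. Library totals, and so depth, are unknown. Exact intervals cover counting error only.

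Each tip was compared with its adjoining 1 to 5 Mb in 9 measures by a two-sided sign-flip permutation test (100000 resamples, smallest p 1e-05), with 0.5 added to counts for density, and end with start tips in 3 measures by an exact one. The strongest and outermost peak of each tip, peaks of 50-fold or more, and extreme tips, windows and distances were named. The members, measures and limits were chosen with earlier results of these data known. Scripts were tested on simulated data. Gene models and the sequence of SL4.0 were not used here, so no peak was assigned to a gene and no sequence is shown. Values were computed with scipy 1.17.1, numpy 2.4.6 and pandas 2.3.3 under Python 3.11.15, and plots with matplotlib 3.10.9.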

Additional observations from a re-analysis of the deposited data

How the results depend on the processing

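The 12 comparisons were repeated under 15 alternatives, which gave 127 values. The alternative that counts start tips from their first peak was chosen after seeing the data. In 95 values the direction and the side of the threshold were those reported. The higher background of the tips passed in all 13 of its alternatives, from 0.176 to 0.289 fragments (highest adjusted p 0.0264). The log2 ratio of summit spacing no longer passed at a −log10 q of at least 5 (0.10), for peaks of 5-fold or more (0.0565), with an outer 2 Mb (0.0132), from 100 kb to 1 Mb (0.0854), over 12 chromosomes (0.14), start tips alone (0.11), end tips alone (0.16), without chromosome 2 (0.12) and with means (0.0714). An outer 500 kb brought density (-0.17), pileup (1.94 fragments), the share of short spacings (-3.03 points) and evenness (0.0625) past the threshold, and an adjoining zone of 1 to 3 Mb brought density (-0.15) and that share (-2.26 points) past it. The cause of these changes was not tested. No measure that turned its sign passed in either setting. With an outer 2 Mb these were density (0.0231), width (1.60 bp), the share at 10-fold (-0.108 points) and fold of end against start tips (0.0047). For start tips alone they were width (0.917 bp), the share at 10-fold (-0.239 points) and short spacings (0.0306 points), which also turned at 5-fold or more (0.184 points). The log2 fold of tips against adjoining zones turned for end tips alone (0.0046), against 1 to 3 Mb (0.0075), at a background within 0.5 of the median (0.0472) and with means (0.0092). That of end against start tips turned at a −log10 q of at least 5 (0.0067), at 5-fold or more (0.000145), without chromosome 2 (0.00083) and from 100 kb inward (0.0062), and their density turned without chromosome 2 (-0.0482). Means were not applied to densities, shares and evenness. The tests paired zones of the WUSCHEL library, but samples could not be paired because each group is 1 library. A pileup near the median of 31 fragments is known to 21.1 to 44.0, which limits any ranking of single peaks.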
